A study of Mus musculus with 8 samples.

Results

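Irf4, Batf, Prdm1, Maf and Bhlhe40 encode transcription factors that shape effector regulatory T cells (Tregs), the activated state of the CD4+ T cells that hold other immune cells in check. The 5 genes were taken by symbol from the 19937 genes measured. Each had 1 probe set annotated to that symbol alone, so no choice between probe sets was needed. They were selected on their differences between the groups, with earlier results of the same comparison known, so these differences are given as a description and carry no test.

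Tregs were taken from bone marrow chimeras in 2 groups of 4 arrays. All recipients were CD3ε-/- mice, which make no T cells of their own because the T cell receptor (TCR) complex lacks CD3ε, and all were lethally irradiated. The WT-CD3KO chimeras (WT below) received wild-type marrow. The IIKO-CD3KO chimeras (IIKO below) received marrow from donors labelled IIKO, and their peripheral Tregs are labelled as lacking contact between TCR and MHC class II. The strain is C57BL/6 and the stated age 6 to 8 weeks, and the cells were collected 28 days after marrow transfer. Cells positive for CD4, TCRβ and CD25 were isolated with magnetic beads and by flow sorting from spleen and peripheral lymph nodes, and 100 ng of total RNA was labelled per array. How many mice each biological replicate pools is not given in the sources used here, so the spread below is that between samples. Any effect of the donor marrow other than lost contact with class II cannot be told apart from it.

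Much of this programme starts at the TCR. IRF4 is induced by TCR signals and binds DNA weakly alone, but strongly beside BATF paired with a JUN protein, at composite AP-1 and IRF elements. Blimp-1, the zinc finger repressor encoded by Prdm1, lies downstream of IRF4 and marks effector Tregs that make IL-10. c-Maf, the product of Maf, is a leucine zipper factor that binds and activates Il10, and BHLHE40 is a basic helix-loop-helix repressor induced by T cell activation.

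The RefSeq windows around the start sites of Irf4, Batf and Prdm1 (GRCm38.p6, 250 bases before to 50 bases after the start, gene strand, 5′ to 3′) are shown because AP-1 and IRF elements are the sites through which these factors act. Irf4 lies at chr13:30748983-30749282 on the plus strand, Batf at chr12:85686470-85686769 on the plus strand and Prdm1 at chr10:44458699-44458998 on the minus strand. Capitals mark matches to the motifs searched.
Irf4: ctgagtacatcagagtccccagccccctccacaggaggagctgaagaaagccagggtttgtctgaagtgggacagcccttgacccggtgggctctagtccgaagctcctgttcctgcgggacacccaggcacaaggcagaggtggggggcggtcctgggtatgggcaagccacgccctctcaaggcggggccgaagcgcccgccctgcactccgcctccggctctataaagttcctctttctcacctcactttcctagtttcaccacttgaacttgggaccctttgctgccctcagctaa
Batf: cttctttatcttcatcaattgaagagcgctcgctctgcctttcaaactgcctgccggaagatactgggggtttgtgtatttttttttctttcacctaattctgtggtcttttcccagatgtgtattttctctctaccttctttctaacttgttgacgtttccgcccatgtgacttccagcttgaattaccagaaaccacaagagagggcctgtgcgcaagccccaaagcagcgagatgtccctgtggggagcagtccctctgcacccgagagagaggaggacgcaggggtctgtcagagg
Prdm1: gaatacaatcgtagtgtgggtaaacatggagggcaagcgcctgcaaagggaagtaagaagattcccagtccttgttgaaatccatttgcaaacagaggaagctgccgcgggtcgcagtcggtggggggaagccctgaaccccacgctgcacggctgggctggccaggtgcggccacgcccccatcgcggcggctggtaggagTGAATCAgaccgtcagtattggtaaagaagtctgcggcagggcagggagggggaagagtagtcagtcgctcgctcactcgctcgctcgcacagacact
Both strands were searched for 6 motifs, with N for any base. These were TGANTCA (the AP-1 element bound by BATF with JUN), a pair of GAAA separated by any 2 bases (IRF factors), a pair of GAAAG separated by any 1 base (Blimp-1; it contains the IRF letters), CACGTG (the E-box of BHLHE40), TGCTGAC (letters from the MAF element) and GGGANTTCC (NF-κB). The single match was TGAATCA in the Prdm1 window, starting 48 bases before the start site. An AP-1 element was present in 7.81% of the 32851 windows in the table, an IRF repeat in 3.44%, an E-box in 7.15%, the MAF letters in 4.67%, an NF-κB element in 1.68% and a Blimp-1 element in 0.463%. A match describes these letters and is not a shown site of binding.

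Bhlhe40 had the highest difference of the 5 genes. It was at 8.96, 9.14, 8.52 and 8.92 on WT arrays 1 to 4 and at 9.80, 9.34, 9.65 and 9.34 on IIKO arrays 1 to 4 (log2 expression after RMA). All 4 IIKO arrays lay above every WT array, with a gap of 0.20 between the groups. The means were 8.89 ± 0.26 and 9.54 ± 0.23 (SD, n = 4 arrays each), a difference of 0.65 ± 0.14 (log2, SE) or 1.57-fold. Of all genes measured, 0.301% had a larger positive difference. Bhlhe40 was also the most variable member, since 94.0% of the genes at or above the median level had a smaller SD among WT arrays and 91.9% a smaller SD among IIKO arrays.

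Irf4 showed a smaller difference and less spread. Its WT arrays were at 8.41, 8.31, 8.21 and 8.21 and its IIKO arrays at 8.44, 8.51, 8.60 and 8.65 (log2). The groups did not overlap, but only 0.03 separated the highest WT array from the lowest IIKO array. The means of 8.29 ± 0.10 and 8.55 ± 0.09 (SD, n = 4 arrays each) differed by 0.26 ± 0.07 (log2, SE), or 1.20-fold. The SDs were close to the median SDs of genes at or above the median level, 0.11 in WT and 0.10 in IIKO.

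Batf, the AP-1 partner of IRF4, did not share that pattern. It was at 11.17, 10.90, 11.03 and 10.90 in WT and at 10.86, 11.08, 11.04 and 10.76 in IIKO (log2). The ranges overlapped, and 2 IIKO arrays lay below all WT arrays while the other two lay within the WT range. The means were 11.00 ± 0.13 and 10.94 ± 0.15 (SD, n = 4 arrays each). The difference was -0.06 ± 0.09 (log2, SE), smaller than its error.

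Prdm1 was at 10.02, 9.80, 10.14 and 10.11 in WT and at 10.38, 10.36, 9.99 and 10.31 in IIKO (log2). IIKO arrays 1, 2 and 4 lay above all WT arrays, and IIKO array 3 lay within the WT range. The means of 10.02 ± 0.15 and 10.26 ± 0.18 (SD, n = 4 arrays each) differed by 0.24 ± 0.10 (log2, SE), or 1.18-fold.

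Maf, the c-Maf gene, was at 9.04, 8.79, 9.09 and 9.08 in WT and at 9.22, 9.21, 9.00 and 9.06 in IIKO (log2). The groups overlapped, with 2 IIKO arrays above all WT arrays. The means of 9.00 ± 0.14 and 9.12 ± 0.11 (SD, n = 4 arrays each) differed by 0.12 ± 0.08 (log2, SE), or 1.09-fold. Without WT array 2, the lowest array, the difference was 0.05.

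**Figure D1:**
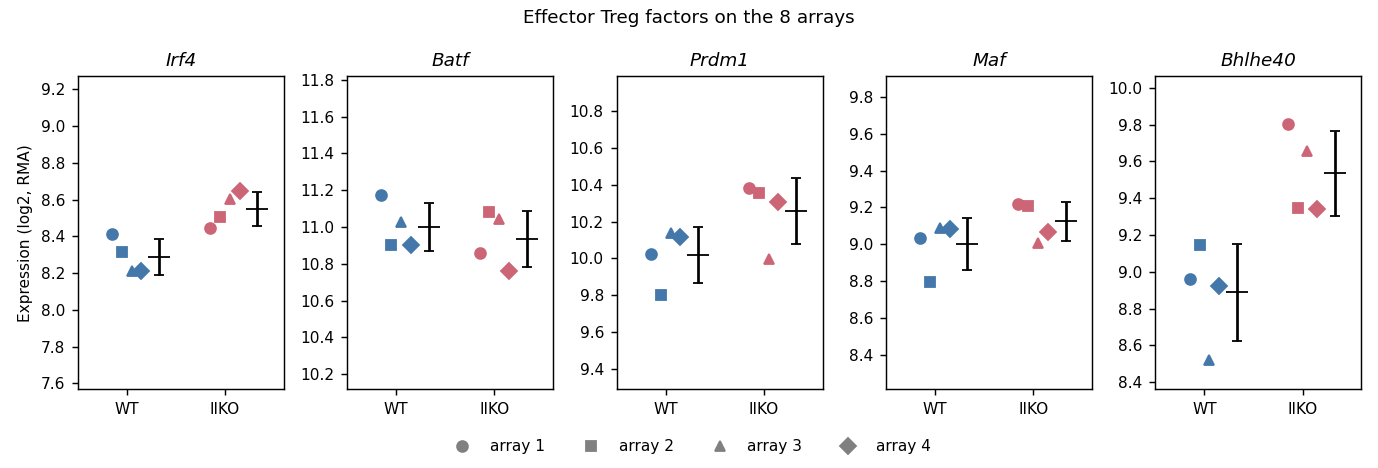
Log2 expression (RMA) of each of the 5 genes on the 4 WT (blue) and 4 IIKO (red) arrays; marker shapes give the replicate number, black bars the group mean ± SD, and all panels span the same log2 range. The groups do not overlap for Irf4 and Bhlhe40 and overlap for Batf, Prdm1 and Maf.

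In the limma fit over all 19937 genes, 57 genes passed a Benjamini-Hochberg adjusted p of 0.05 (0.286%), and 0 of the 5 factors were among them. Before adjustment, 3 of the 5 lay under a limma p of 0.05 as higher and 0 as lower, against 5.27% of all genes higher and 12% lower. The groups did not overlap, with IIKO higher, for 2 of the 5 and for 2.83% of all genes; with IIKO lower, this held for 0 of the 5 and for 7.69% of all genes. These counts come from the comparison in which the genes were selected, and nothing is read from them. The 5 genes lie on chromosomes 13, 12, 10, 8 and 6, and none on chromosomes 7 and 17, which held 35 of the 57 changed genes. The median difference of all genes was -0.04 (log2), and that of genes at or above the median level, which include all 5 factors, was 0.01.

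Prdm1 and Maf varied together from array to array inside each group, a measure from which the difference between the groups was removed. Relative to their group means, WT array 2 was low in both genes, by -0.22 for Prdm1 and -0.21 for Maf (log2). IIKO array 3 was also low in both, at -0.27 and -0.12. IIKO array 1 was high in both, at 0.12 and 0.09. On IIKO array 4 the signs differed, at 0.05 for Prdm1 and -0.06 for Maf. Over the deviations of the 8 arrays, Pearson's r was 0.902 (exact permutation within groups, two-sided, p = 0.00174, the smallest that test can give) and Spearman's rho 0.952 (exact permutation p = 0.00347). Adjusted over the 15 relations computed, the 10 pairs of the 5 genes and each gene with Il10, these became p = 0.026 and p = 0.0521 (exact permutation, Benjamini-Hochberg). Each relation was recomputed without the 2 arrays farthest from the median deviation of the first gene of the pair. Without WT array 2 and IIKO array 3, r was 0.768 over 6 arrays (exact permutation p = 0.0278, the smallest those arrays allow). An r this high over the 8 arrays was not particular to this pair. Among 9398 other genes at or above the median level, 48 reached at least 0.9 with Prdm1 and 49 with Maf.

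Il10, the suppressive cytokine gene that both Blimp-1 and c-Maf regulate, was also lowest on these arrays. It stood at 9.15, 8.61, 9.15 and 9.29 on the WT arrays and at 9.65, 9.63, 9.36 and 9.63 on the IIKO arrays (log2), so that WT array 2 and IIKO array 3 were the low array of their group. The deviations of Il10 had an r of 0.882 with Prdm1 (rho 0.595) and of 0.904 with Maf (rho 0.690). Neither passed after adjustment (exact permutation p = 0.0226 and 0.0156 for r, both 0.113 adjusted; 0.0712 and 0.0312 for rho, both 0.224 adjusted). Without WT array 2 and IIKO array 3, r was 0.340 and 0.208 (exact permutation p = 0.694 and 0.583), so both relations rest on those arrays. Il10 was added to the relations after its values were seen.

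For Irf4 the relation to Prdm1 and Maf was negative and did not pass the adjusted test over the 8 arrays. Its deviations had an r of -0.508 with Prdm1 (rho -0.786) and of -0.566 with Maf (rho -0.738). The exact permutation p was 0.259 and 0.186 for r and 0.0451 and 0.0747 for rho, with adjusted values of 0.668 for r and 0.224 for rho. Without WT array 1 and IIKO array 4, the 2 arrays farthest from the median for Irf4, r was -0.959 and -0.918 over 6 arrays. Both had an exact permutation p of 0.0278, the smallest those arrays allow, without adjustment. Both relations were stronger without WT array 1 and IIKO array 4, so their size depends on those arrays. The other 10 relations had adjusted exact permutation p values of at least 0.668. Array 3 of the IIKO group, low in Prdm1 and Maf, also had the highest mean over the 15 markers of myeloid and dendritic cells, at 6.424, against 6.119 to 6.228 on the other IIKO arrays. WT array 2 was at 6.242 in a WT range of 6.138 to 6.309. The mean of 8 NK and CD8 T cell markers was the highest of its group on both arrays. It was 7.081 on WT array 2 (others 6.736 to 7.055) and 6.881 on IIKO array 3 (others 6.750 to 6.811). The mean of 7 B cell markers was the lowest of WT on array 2, at 6.107, and the highest of IIKO on array 3, at 6.240. The part of any of these cells in the pattern was not tested.

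**Figure D2:**
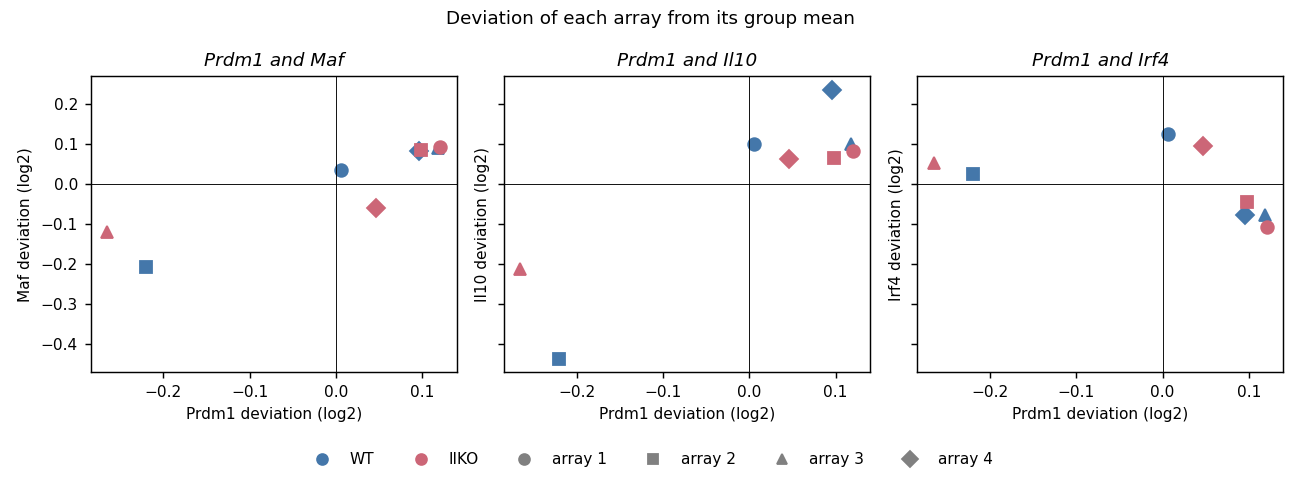
Deviation of each array from its group mean (log2) for Prdm1 on the horizontal axis and Maf, Il10 or Irf4 on the vertical axis, for 4 WT (blue) and 4 IIKO (red) arrays with shapes for replicate numbers. WT array 2 and IIKO array 3 sit at the low end for Prdm1, Maf and Il10, and slightly above 0 for Irf4.

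Genes whose deviations were most like those of each factor were ranked among 9398 other genes at or above the median level. Over the 8 arrays, Irf4 was followed most closely by Wdr62 (r = 0.969), Iqank1 (0.968) and Nop2 (0.968). Batf was followed by Arf3 (0.993), Dcun1d5 (0.973) and Slc2a9 (0.972), and Prdm1 by Ctss (0.969), Ppp2r5c (0.966) and Fam234b (0.957). Maf was followed by Lamc1 (0.971), Plekho2 (0.967) and Gemin7 (0.966), and Bhlhe40 by Smc3 (0.944), Polr3e (0.942) and Arfgef2 (0.939). An r of at least 0.9 was reached by 29 genes for Irf4, 42 for Batf, 48 for Prdm1, 49 for Maf and 12 for Bhlhe40. With so few arrays and so many genes, these values describe the libraries and carry no p.

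Protein relatives of the 5 factors showed no change past the test. Of the other IRF genes, 0 of 7 passed limma's adjusted p of 0.05 (0 at an unadjusted p under 0.05). Irf7, the interferon-induced member, differed by 0.34 ± 0.18 (log2, SE; limma adjusted p = 0.353). Irf2 and Irf9, which act in interferon responses, each differed by 0.13 ± 0.07 (adjusted p = 0.36 and 0.381). Irf8, the close relative of IRF4 that is central to myeloid and B cells, differed by -0.15 ± 0.12 (adjusted p = 0.534). The median of the IRF list was 0.11, against -0.04 over all genes. All 7 IRF genes lay at or above the median level, where the median difference was 0.01.

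Among partners of BATF and its paralogs, 0 of 5 passed limma's test (0 unadjusted). Junb, which pairs with BATF in T cells, was at 7.78 ± 0.19 in WT and 7.97 ± 0.08 in IIKO (SD, n = 4 arrays each; limma adjusted p = 0.314). Batf3, the paralog needed by cross-presenting dendritic cells, was at 6.96 ± 0.11 and 6.93 ± 0.04 (limma adjusted p = 0.823). The list's median of -0.03 turned to 0.02 after a further quantile normalization, with arrays centred on their medians and without WT array 2. It was 0.10 for its 3 genes at or above the median level.

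In the MAF and BACH family, 0 of 7 genes passed (limma; 0 unadjusted). The list's median of -0.13 was -0.02 for its 5 genes at or above the median level, -0.07 without WT array 1 and -0.05 with the further quantile normalization. Maff, a small MAF protein, differed by 0.29 ± 0.13 (log2, SE; limma adjusted p = 0.292). Bach2, a repressor that binds with small MAF proteins and holds back Prdm1 and the effector programme, differed by -0.19 ± 0.09 (adjusted p = 0.32). Its arrays were at 7.29, 7.62, 7.25 and 7.42 in WT and 7.10, 7.17, 7.39 and 7.16 in IIKO, where IIKO array 3 was the highest of its group.

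Of the other PRDM genes, 0 of 11 passed limma's test. Against 5.27% of all genes higher and 12% lower, 1 was higher and 1 lower at an unadjusted limma p under 0.05. These were Prdm4 (0.14 ± 0.05, log2, SE; limma adjusted p = 0.23) and Prdm14, a factor of germ and stem cells (-0.20 ± 0.06, adjusted p = 0.176). Among helix-loop-helix relatives of BHLHE40, 0 of 11 passed (limma; 1 higher and 1 lower unadjusted). Bhlhe41, the paralog of Bhlhe40, was at 4.48 ± 0.13 and 4.45 ± 0.03 (SD, n = 4 arrays each), below the lower quartile of gene levels (6.04). Id2, an inhibitor of E proteins found in effector T cells, differed by 0.22 ± 0.13, and Id3, its counterpart in resting cells, by -0.33 ± 0.15 (log2, SE; limma adjusted p = 0.415 and 0.284). The PRDM median of 0.03 turned to -0.01 when probe sets were averaged per gene and to -0.0055 without IIKO array 3, and was 0.14 among genes at or above the median level. The helix-loop-helix median of -0.03 turned to 0.01 after the quantile normalization and 0.02 with centred arrays. It was 0.06 for its 6 genes at or above the median level.

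**Figure D3:**
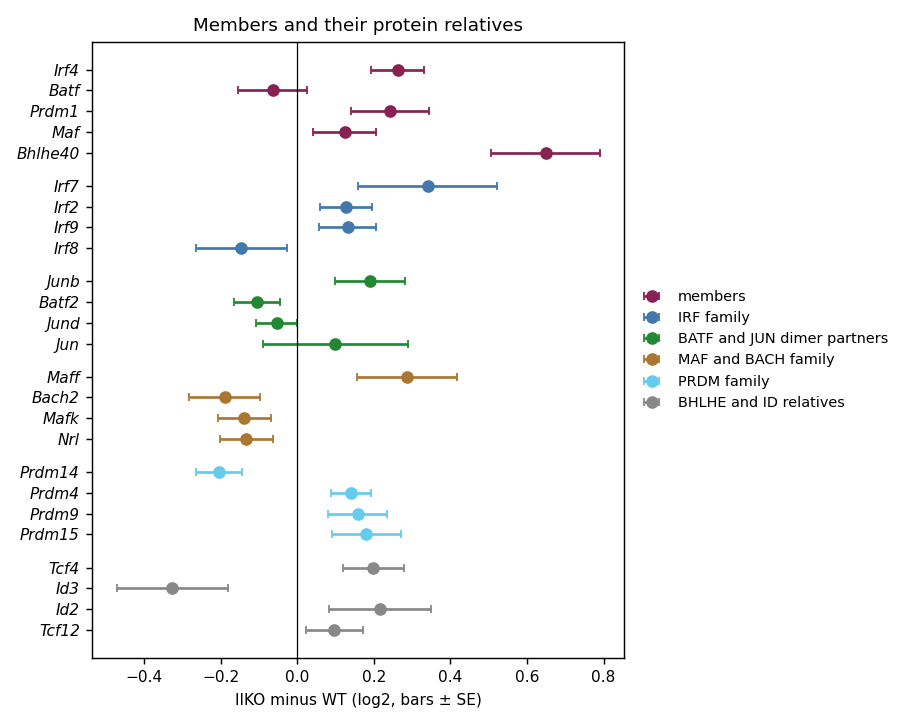
Difference IIKO minus WT (log2, bars ± SE, n = 4 arrays per group) for the 5 factors and for the 4 genes of smallest p in each family of relatives. Bhlhe40 lies farthest to the right at 0.65, Batf at -0.06, and no relative passed limma's adjusted test.

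Upstream of the factors, receptors and transducers that induce them had 0 of 18 genes past limma's test. Against 5.27% of all genes higher and 12% lower, 4 were higher and 0 lower at an unadjusted limma p under 0.05. These were Nfkb2, an NF-κB subunit (0.22 ± 0.07, log2, SE), Malt1, which links the TCR to NF-κB (0.41 ± 0.13), Il2ra, the IL-2 receptor chain CD25 on which the cells were sorted (0.17 ± 0.06), and Il6st, the shared receptor chain gp130 (0.15 ± 0.06). Their limma adjusted p values ran from 0.194 to 0.257. The list's median was 0.08.

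Among effector Treg genes other than the 5 factors, 0 of 29 passed limma's test. Against 5.27% of all genes higher and 12% lower, 4 were higher and 1 lower at an unadjusted limma p under 0.05. Ccr2, an inflammatory chemokine receptor, was at 10.38, 10.14, 10.62 and 10.38 in WT and 11.54, 11.70, 10.80 and 10.96 in IIKO (log2). Its IIKO arrays all lay above the WT arrays, with array 3 again the lowest, and the limma adjusted p was 0.116. Il10 differed by 0.52 ± 0.13 and Lag3, an inhibitory receptor, by 0.43 ± 0.11 (log2, SE; limma adjusted p = 0.157 and 0.16). Ccr6, a mucosal chemokine receptor, differed by -0.31 ± 0.12 (adjusted p = 0.228). The list's median was 0.05; with 1 array left out it ran from -0.0032 without IIKO array 2 to 0.12 without IIKO array 4. The groups did not overlap, with IIKO higher, for 5 of 29 genes, against 2.83% of all genes. These were Ccr2, Il10, Lag3, Ctla4 and Tigit, the last named after its values were seen. With IIKO lower, this held for 0 of 29, against 7.69% of all genes. Of the cytokine genes, Il10 among them, 3 of 11 did so as higher and 2 as lower. The signal inputs had 1 higher and 0 lower of 18, and the resting list 0 and 1 of 15.

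Genes of resting Tregs and antagonists of the effector factors had 0 of 15 past limma's test. Against 5.27% of all genes higher and 12% lower, 1 was higher and 4 lower at an unadjusted limma p under 0.05. Bcl6, the repressor that opposes Blimp-1, was at 7.34 ± 0.10 in WT and 7.12 ± 0.16 in IIKO (SD, n = 4 arrays each; limma adjusted p = 0.236). Foxo1, which sustains the resting state, was at 9.42 ± 0.06 and 9.25 ± 0.10 (adjusted p = 0.235). Satb1, a chromatin organiser, differed by 0.18 ± 0.07 (log2, SE; adjusted p = 0.242). The list's median of 0.02 turned to -0.04 after the further quantile normalization. It was also -0.04 without IIKO array 4, -0.01 without IIKO array 3 and -0.0045 without WT array 2.

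Cytokine genes under the control of these factors had 0 of 11 past limma's test. Against 5.27% of all genes higher and 12% lower, 3 were higher and 1 lower at an unadjusted limma p under 0.05. Il21, a cytokine gene that c-Maf activates in helper T cells, was at 5.53, 5.95, 5.72 and 5.75 in WT and 7.05, 6.25, 6.60 and 6.52 in IIKO (log2). Its groups did not overlap, and the difference of 0.87 ± 0.15 (SE) had a limma adjusted p of 0.0585. It passed in 3 of 14 alternatives, after a further quantile normalization (0.0409), with centred arrays (0.0465) and without IIKO array 2 (0.038), in a range up to 0.157. Its WT mean of 5.74 is under the lower quartile over genes (6.04), and no probe background was examined. Il2 differed by 0.44 ± 0.11 and Il17a by -0.13 ± 0.05 (limma adjusted p = 0.157 and 0.236); the WT mean of Il2, 6.01, also lay under that quartile.

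**Figure D4:**
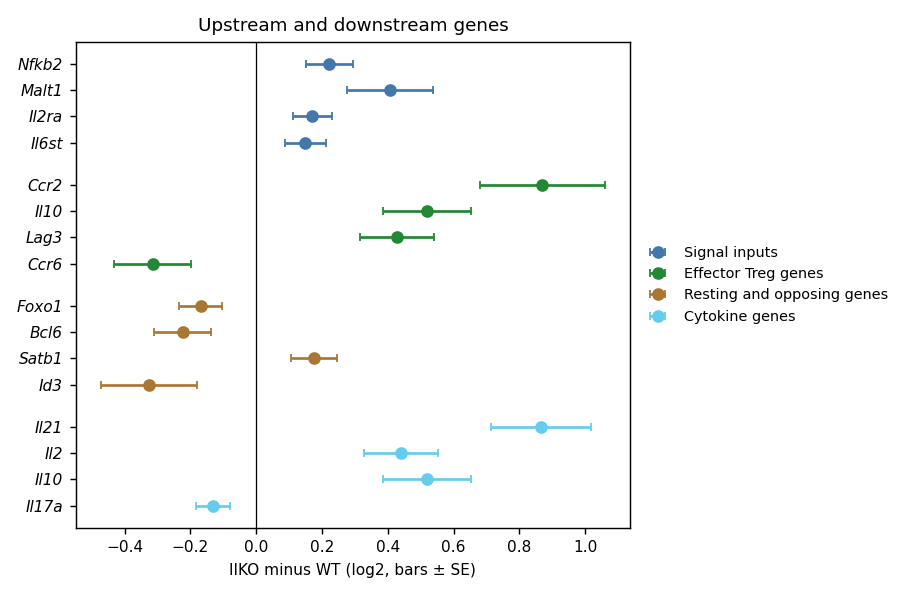
Difference IIKO minus WT (log2, bars ± SE, n = 4 arrays per group) for the 4 genes of smallest p among signal inputs, effector Treg genes, resting and opposing genes and cytokine genes. Ccr2 and Il21 lie farthest to the right at 0.87 each, and none of these genes passed limma's adjusted test.

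The sorted cells carried the markers of Tregs. Foxp3 was at 10.63 ± 0.04 in WT and 10.68 ± 0.12 in IIKO, and Ctla4 at 12.24 ± 0.06 and 12.36 ± 0.04 (SD, n = 4 arrays each). The mean of 7 Treg markers ran from 11.576 to 11.620 in WT and 11.602 to 11.698 in IIKO. Of these 7 genes 0 passed limma's test, and 2, Il2ra and Ctla4, were higher at an unadjusted p under 0.05, against 5.27% of all genes. The groups did not overlap, with IIKO higher, for 3 of 7, against 2.83% of all genes, and with IIKO lower for 0 of 7, against 7.69%. Since B, plasma and myeloid cells can also express Irf4, Prdm1 or Maf, their markers were averaged per array. The mean of 7 B cell markers ran from 6.107 to 6.336 in WT and 6.102 to 6.240 in IIKO, and that of 6 plasma cell markers from 6.557 to 6.651 and 6.527 to 6.649. The mean of 15 myeloid and dendritic cell markers ran from 6.138 to 6.309 and 6.119 to 6.424. In each of these lists the 2 groups overlapped, 0 genes passed limma's test (Ebf1 and Siglech, 1 B cell and 1 dendritic cell marker, were lower at an unadjusted p under 0.05, and 0 plasma cell markers lay under it), and most genes, 6 of 7, 4 of 6 and 13 of 15, lay below the median gene level. Follicular helper T cell markers averaged 7.600 to 7.796 and 7.601 to 7.796, and NK and CD8 T cell markers 6.736 to 7.081 and 6.750 to 6.881. Of 3 erythroid markers the mean ran from 7.166 to 7.375 and 6.818 to 7.252. In these 3 lists 0 genes passed limma's test; 3 of 6 follicular, 3 of 8 NK and CD8 and 1 of 3 erythroid markers lay at an unadjusted p under 0.05, against 17.3% of all genes. Of the follicular markers these were Il21, higher, and Bcl6 and Sh2d1a, lower. Of the NK and CD8 markers Klrd1 was higher, and Gzma and Cd8a (named after its values were seen) were lower. The groups did not overlap, with IIKO lower, for 2 of 8 NK and CD8 markers, against 7.69% of all genes. With IIKO higher, this held for 0 of 8, against 2.83%. Gzma overlapped between the groups. The erythroid marker Slc4a1 was lower at an unadjusted p under 0.05. Gzma, a granzyme gene of cytotoxic cells, was at 8.89, 10.08, 9.77 and 8.58 in WT and 8.46, 8.51, 8.49 and 8.72 in IIKO (log2). Its difference of -0.78 ± 0.28 (SE; limma adjusted p = 0.218) was larger in size than that of any of the 5 factors, and its part in their values was not tested. In sorted bulk RNA, a difference in the share of cells that express a gene cannot be told apart from one in RNA per cell.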

How the data were processed

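Sorted Tregs were profiled on 8 Affymetrix arrays, 4 per group, with groups taken from the sample titles. The authors deposited log2 values for each probe set; affy and RMA are named in the submitters' processing notes, without versions or settings. RMA draws low values together, so differences of dim genes are understated. Of 34760 probe sets, 21640 had 1 symbol in the platform annotation, and the probe set with the highest mean was kept for each of 19937 genes. The test was limma 3.58.1 under R 4.3.3 (IIKO minus WT, Benjamini-Hochberg over all genes, two-sided, threshold 0.05). The fit was tested on simulated data.

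The 5 members and the lists were chosen with earlier results of these data known. Genes named in a list are taken from those past the threshold and the 4 of smallest p (for markers, 2 of smallest p and 2 of highest mean), with relatives and targets of a member; the 3 leading genes by likeness exclude unnamed models. List genes with no probe set of 1 symbol were not analysed here. Of the 5 members, 3 had a RefSeq promoter window. Other settings tried were a further quantile normalization, median centring, a block for replicate number, a threshold of 0.01, only genes at or above the median level, trended robust variance, array weights, mean of probe sets and each array left out. The number of arrays limits the precision. Figures used Python 3.11.15 and matplotlib 3.10.9.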

Additional observations from a re-analysis of the deposited data

Results flagged for a closer look

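In groups of 4 arrays, a value is listed here where its gap to the nearest other array, divided by the group's range, exceeded Dixon's 95% critical value for 4 values. Of 122 groups of 4 arrays examined, 7 held such a value; chance gives about 1 in 20 groups. None was of the 5 factors. Il10 on IIKO array 3 was at 9.36, below the other IIKO arrays at 9.63 to 9.65. On WT array 2, Irf9 was at 9.58 (others 9.31 to 9.35), Il6st at 10.91 (others 10.73 to 10.75) and Batf3 at 7.12 (others 6.89 to 6.93). On IIKO array 1, the B cell markers Ebf1 and Cd79b were low, at 5.15 (others 5.32 to 5.33) and 7.22 (others 7.56 to 7.60). On IIKO array 4, Sdc1, a plasma cell marker, was at 6.19 (others 6.11 to 6.12).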

How the results depend on the processing

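All 75 recomputed differences of the 5 factors kept their sign. Bhlhe40 ran from 0.53 to 0.73, Irf4 from 0.23 to 0.31 and Prdm1 from 0.17 to 0.33. Maf ran from 0.05 to 0.17 and Batf from -0.11 to -0.01. All moved by less than 1 SD, but much of this was fixed in advance. The block, the trended robust variance, the limit to brighter genes and the mean of probe sets could not alter these differences. Each replicate number occurs once in each group, so the block leaves them as they are. The variance setting and the limit to brighter genes act only on the SE. For the mean of probe sets, each of the 5 genes had 1 probe set. Leaving out 1 of 4 arrays cannot move a difference by 1 SD. The count of 57 genes over all genes became 31 with the replicate number as a block, 21 at a threshold of 0.01, 81 with centred arrays (58 higher and 23 lower, against 32 and 25) and 32 to 50 with 1 array left out (32 without WT replicate 1 or IIKO replicate 2, 33 without WT replicate 3, 35 without IIKO replicate 3, 36 without IIKO replicate 1). Arrays of the same number correlated by 0.04, -0.01, -0.07 and 0.22 in their deviations over genes. No correlation of arrays of unlike number was computed beside these, so whether the numbers pair the arrays was not tested. The block changed no call of a list. Of 144 recomputed list counts, 141 were 0; the cytokine list had 1, Il21, after a further quantile normalization, with centred arrays and, among fits with 1 array left out (0 to 1), without IIKO replicate 2. The number of arrays, 4 per group, limits the precision, and signal over background was not examined, since no probe-level data were used here.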
